A study of Mus musculus with 29 samples.

Results

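Among the genes of cardiac fibroblasts taken fresh from young and aged mouse hearts, 7 with very large differences between the ages are described here: Nefm, Crct1, Arg2, Star and Sprr2h, which were higher in the aged cells, and Slc38a4 and Spon2, which were lower. They were picked by name out of 55357 genes in the count table because of that fresh difference, so their fresh values are a description and carry no test. All 7 passed the filter on low counts in fresh cells, where 11786 genes could be tested. In cultured cells 12841 genes could be tested, and Slc38a4 and Spon2 were the 2 of the 7 among them. The question the study's design puts to these genes is whether the difference was still there after the cells had been cultured on a defined substrate.

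Cardiac fibroblasts are the cells that make and maintain the extracellular matrix (ECM) of the heart. The libraries were made from primary mouse cardiac fibroblasts, young (YCF) or aged (ACF), either fresh from the heart (3 young and 3 aged libraries) or after 48 h on a DECIPHER substrate, a hydrogel combined with heart ECM. The substrates were SoftY, StiffY, SoftA and StiffA, names that the labels do not spell out and that are read here as a soft or stiff gel with ECM of young (Y) or aged (A) hearts, and each cell age had 3 libraries on each of them, except young cells on SoftY, which had 2. No genotype or agent is named for any group, and the labels give neither the strain, sex and age of the mice nor which libraries share an animal. They call the libraries biological replicates, and what the p-values weigh is how far these libraries scatter. In such bulk RNA, fewer cells of a type and less RNA per cell cannot be told apart. All fresh libraries carry 1 letter in their names and the cultured ones carry 4 others that follow the substrate, so that culture, substrate and preparation cannot be told apart.

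Nefm encodes the medium chain of the neurofilament, the intermediate filament of axons. Crct1 and Sprr2h lie in the epidermal differentiation complex, a gene cluster whose products are cross-linked into the cornified envelope of the skin. Arg2 encodes the mitochondrial arginase, which splits arginine into ornithine, the precursor of polyamines and proline, and urea. Star encodes the steroidogenic acute regulatory protein, which moves cholesterol to the inner mitochondrial membrane, where steroid synthesis starts. Slc38a4 encodes a sodium-coupled transporter of neutral amino acids and is expressed from the paternal allele in mouse. Spon2 encodes a secreted protein of the F-spondin family that binds to the matrix and to integrins.

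On mm39, the build of the counts, and by the gene records of the table, all of them are protein coding. Nefm lies at chr14:68320039-68362296, Arg2 at chr12:79177551-79203076, Star at chr8:26296583-26306011, Slc38a4 at chr15:96892701-96953838 and Spon2 at chr5:33355528-33375800. Sprr2h (chr3:92292992-92294632) and Crct1 (chr3:92921512-92922995) are the ends of a stretch of 630.004 kb that holds 44 genes of the table. Of these, 29 had 0 counts in all fresh libraries and 6 had more than 10, among them Crct1 and Sprr2h. The others above 10 were Sprr1a, at 28 (young) and 69 (aged) counts, the envelope precursor Ivl, at 5 and 10, and the 2 genes with provisional names Gm9774 and Gm4202. Most of the genes between the 2 ends had no counts in fresh cells.

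Promoter sequence in the RefSeq table (GRCm38.p6) was at hand for 2 of the 7, Sprr2h, with 1 start, and Slc38a4, with 3. These 2 were the ones at hand and are shown beside their values in culture: Sprr2h had no count in any cultured library, while the age difference of Slc38a4 was seen on every substrate. Each line gives the 250 bases before the start, for Slc38a4 before its outermost start, 5′ to 3′ on the strand of the gene. Capitals mark the motifs searched on both strands, which were AP-1 (TGANTCA), the CRE core (TGACG), the TATA box (TATAAA) and CCAAT.
Sprr2h, chr3:92385435-92385684, plus strand: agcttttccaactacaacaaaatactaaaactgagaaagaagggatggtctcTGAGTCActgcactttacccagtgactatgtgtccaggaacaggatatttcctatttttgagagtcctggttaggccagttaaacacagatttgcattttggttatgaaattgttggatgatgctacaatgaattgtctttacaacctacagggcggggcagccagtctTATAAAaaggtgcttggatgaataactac
Slc38a4, chr15:97055957-97056206, minus strand: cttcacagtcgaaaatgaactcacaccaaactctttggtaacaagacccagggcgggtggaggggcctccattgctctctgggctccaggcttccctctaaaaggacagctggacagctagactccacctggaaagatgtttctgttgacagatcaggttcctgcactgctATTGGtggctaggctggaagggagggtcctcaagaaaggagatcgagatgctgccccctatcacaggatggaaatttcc
The Sprr2h window holds TGAGTCA from 198 bases before the start and TATAAA from 29 bases before it. Of 32851 promoters cut to the same length, 6.75% held an AP-1 match and 12.4% a TATAAA. The Slc38a4 window holds 1 CCAAT, on the other strand (ATTGG), from 79 bases before the start, a motif found in 33.8% of promoters, and no match to the other 3. A match is a run of letters and was not tested as a site.

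Levels are given in CPM, counts scaled to a common library size with TMM factors, and 1 CPM stood for 1.21 to 3.48 counts in a library. Library totals were between 1192668 and 3275089 counts. Of the 11786 genes tested in fresh cells, 33.8% differed between aged and young cells at an adjusted p under 0.05 in edgeR's quasi-likelihood test, 16.1% higher and 17.7% lower in aged cells. All 7 genes are far out in that distribution by their selection. Ranked by log2 fold change among the 9239 genes with a mean of at least 10 CPM, Nefm was number 1, Crct1 5, Arg2 6, Star 8 and Sprr2h 9 of the genes higher in aged cells, and Slc38a4 was number 1 and Spon2 number 4 of those lower. The fresh libraries all showed the fibroblast markers, whose summed level was 10003 to 10601 CPM in young and 10164 to 10557 CPM in aged cells. The like sums hold opposite differences of single markers, since all 11 were called between the ages, 4 higher and 7 lower in aged cells. The collagen genes Col1a1 (1320 to 255 CPM), Col3a1 (1308 to 454 CPM) and Col1a2 (785 to 173 CPM) were lower in aged than in young cells, and the surface protein gene Pdpn (1375 to 3237 CPM) was higher.

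**Figure D1:**
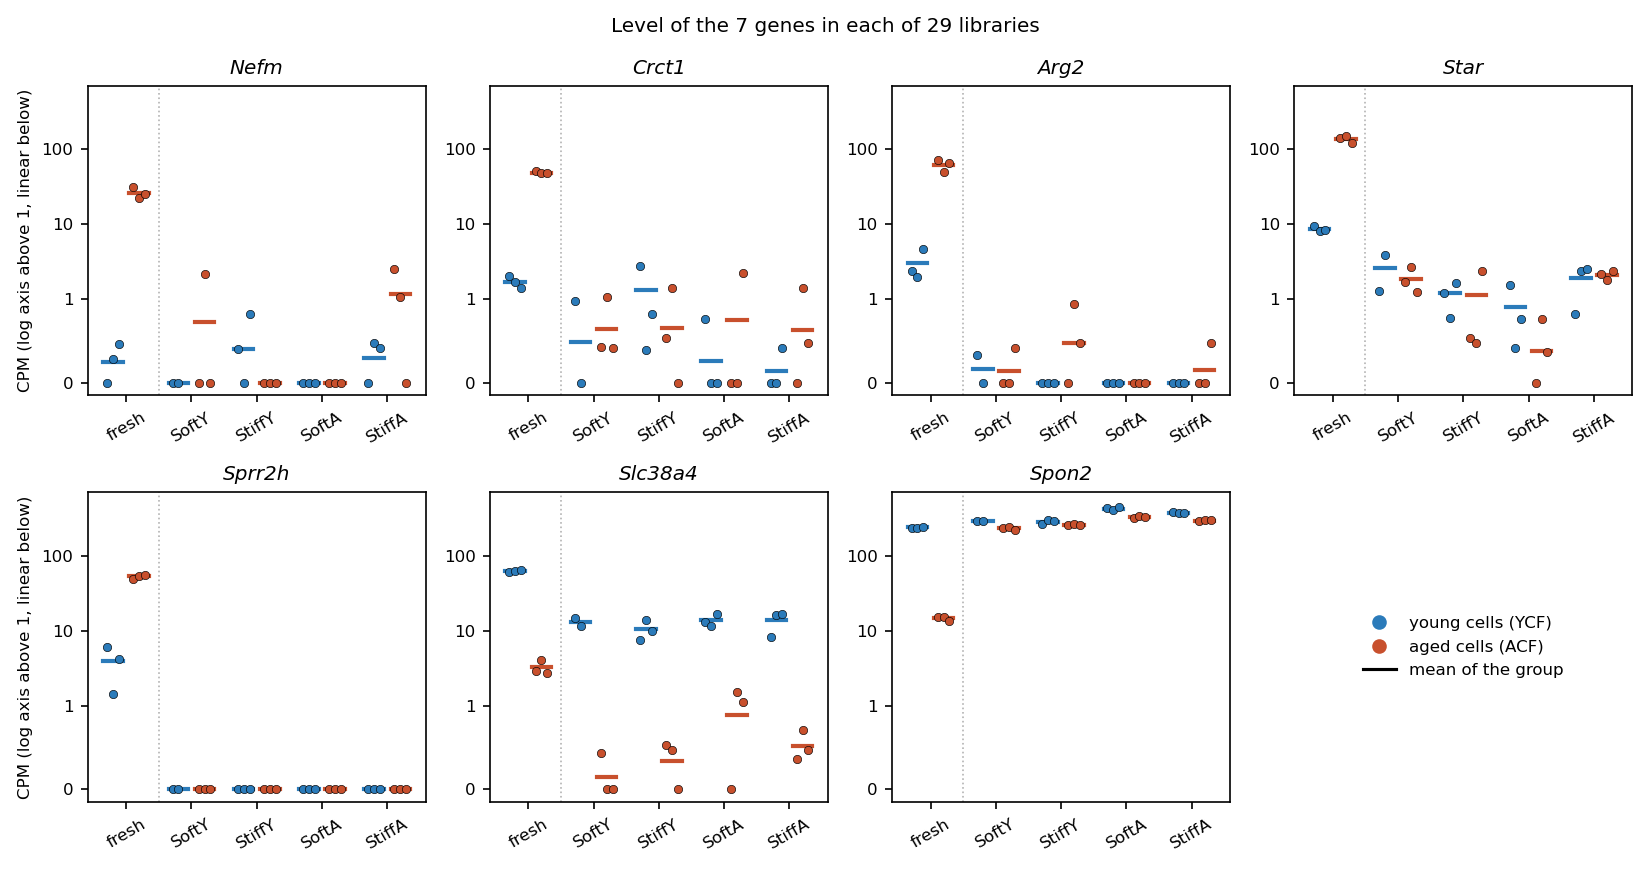
Level in CPM of each of the 7 genes in every library (points) with the mean of each group (lines), on an axis that is logarithmic above 1 CPM and linear below. The 5 genes that were higher in fresh aged cells lie near 0 at both ages in culture, Slc38a4 stays apart by age on all 4 substrates, and aged cells reach the young level of Spon2 to within 1.29-fold.

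Nefm was close to absent from fresh young cells. It had 0, 1 and 1 counts in the 3 young libraries and 76, 54 and 65 in the 3 aged ones, that is 0, 0.287 and 0.467 CPM against 31.4, 22.4 and 25.5 CPM. The groups do not overlap, and the ratio of the pooled levels was 113 with a 95% counting interval of 30.8 to 937, wide because 2 counts carry the young level. The fold of the group means was 105, and it was 184 without the young replicate 3 and 70.0 without the young replicate 1. Such intervals cover counting error only, here and below. No molecular identifiers are named for the reads, so copies made in the cDNA amplification may be counted and the intervals may be too narrow.

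The Nefm record of the table reaches over Nefl, the light chain of the same filament (chr14:68321312-68326545). Nefl had 0 counts in fresh young cells, 45 in fresh aged cells and 0 in culture, so both neurofilament chains had counts in the aged cells. In the GENCODE M21 transcripts, 18.5% of the 50-base windows of Nefm also occur in Nefl, and the table does not say how reads of shared sequence were counted, so the split between the 2 genes is uncertain. The heavy chain, Nefh, had 2 counts in fresh young and 1 in fresh aged cells. Of 11 intermediate filament genes, 2 others could be tested in fresh cells: nestin (Nes) was higher in aged cells (log2 fold change 0.45 ± 0.18, adjusted p = 0.045) and vimentin (Vim) was not called (-0.06 ± 0.06, adjusted p = 0.453). For related genes, parentheses hold the log2 fold change of aged over young cells ± SE and the adjusted p of edgeR's test, and their counts are to be read beside the 33.8% of all genes called in fresh cells and the 14.1% called in the mean over substrates in culture. In culture Nes (-0.75 ± 0.18, adjusted p = 0.00372) and syncoilin (Sync, -1.15 ± 0.20, 7.36e-05) were lower in aged cells, 2 of the 3 tested. The summed level of markers of neurons and Schwann cells was 35.5 to 43.4 CPM in fresh young and 8.70 to 23.1 CPM in fresh aged cells. Much of it was Tubb3, at 25.8 and 8.76 CPM in fresh cells and at 82.5 to 351 CPM in the cultured groups. S100b had 2 counts in fresh young and 5 in fresh aged cells. The neuronal markers Stmn2, Snap25, Th and Dbh were at 0 counts in all 6 fresh libraries. The part of these markers in the Nefm level was not tested.

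In culture Nefm had few counts at either age. Its total was 14 counts in 12 aged libraries, 9 of which had 0, and 4 counts in 11 young libraries, 7 of which had 0. The highest were 7 and 3 counts in aged cells on StiffA and 4 in aged cells on SoftY, or 2.52, 1.07 and 2.18 CPM. The pooled level of aged cells was 50.7-fold lower in culture than fresh, and every cultured aged library lay below every fresh aged one. The aged over young ratio in culture was 3.06 with a counting interval of 0.960 to 12.8, and the exact two-sided permutation test within substrates gave p = 0.388.

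Crct1 had 6, 6 and 3 counts in fresh young and 125, 116 and 122 in fresh aged libraries. These are 2.05, 1.72 and 1.40 CPM against 51.6, 48.1 and 47.8 CPM, a fold of 28.5 between the means with no overlap. In culture it had 14 counts over the 11 young and 19 over the 12 aged libraries, with 2.81 CPM in a young library on StiffY as its highest level. Aged cells were 69.6-fold lower in culture than fresh, and young cells 2.95-fold lower, with overlap between fresh and cultured young libraries. The aged over young ratio in culture was 1.19, with a counting interval of 0.563 to 2.55 (exact permutation p = 0.742). It was not tested against the fresh ratio of 28.0, which chose the gene.

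Sprr2h had 18, 5 and 9 counts in fresh young and 120, 130 and 143 in fresh aged libraries. The young levels were 6.16, 1.44 and 4.21 CPM and the aged levels 49.5, 53.9 and 56.0 CPM, so that the aged libraries lay close together and the young ones varied. The fold of the means was 13.5, and it was 10.3 to 18.8 with 1 fresh library left out. None of the 23 cultured libraries held a single Sprr2h count. With a floor of 3 counts over each pooled age, cultured young cells were at least 29.4-fold lower than fresh young cells and cultured aged cells at least 477-fold lower than fresh aged cells. No window of 50 bases in Sprr2h or Crct1 transcripts occurs in the transcripts of another gene, so their sequence is unique at that length.

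The other cornified envelope genes were low. Of the 35 listed, 34 are in the table, and 2 besides Crct1 and Sprr2h had enough counts to be tested in fresh cells. Both were higher in aged cells by edgeR's quasi-likelihood test with Benjamini-Hochberg adjustment. Sprr1a had a log2 fold change ± SE of 1.45 ± 0.40, adjusted p = 0.00523 (3.43 and 9.33 CPM). Sprr2e had one of 1.59 ± 0.53, adjusted p = 0.0196 (1.46 and 4.47 CPM), and rests on 12 young and 33 aged counts. Genes of the list too low to be tested in fresh cells went both ways. Tgm1 went from 42 counts in fresh young to 18 in fresh aged cells and Ppl from 15 to 3. Tchh went from 12 to 26 counts and Sprr2g from 0 to 16. In culture 3 of the envelope genes could be tested and 0 differed between the ages. Their median log2 difference was 0.45 against 0.00 over all genes, of which 14.1% differed. The 2 of them with the highest levels were the hair and tongue filament protein Tchh (0.45 ± 0.29, adjusted p = 0.326) and the plakin Ppl (0.54 ± 0.32, adjusted p = 0.293). Sprr2e and Sprr2g, like Sprr2h, were at 0 CPM in all 8 cultured groups. The 12 epithelial and keratinocyte markers summed to 1.15 to 3.27 CPM in fresh young and 2.74 to 6.19 CPM in fresh aged libraries. Cdh1, Epcam, Krt5, Krt14 and Trp63 were at 0 in all fresh libraries. From fresh young to fresh aged cells, Krt19 went from 10 to 23 counts and Grhl2 from 0 to 3. Krt18 went from 6 to 3 counts and Cldn7 from 3 to 1. The part of these markers in the levels of Crct1 and Sprr2h was not tested.

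Arg2 had 7, 7 and 10 counts in fresh young and 173, 122 and 168 in fresh aged libraries. The levels were 2.40, 2.01 and 4.67 CPM against 71.4, 50.6 and 65.8 CPM, a fold of 20.7 between the means with no overlap. In culture, 1 count was seen over all young and 5 over all aged libraries, with 0 in 10 of 11 and 8 of 12 libraries. Cultured aged cells were thus 337-fold below fresh aged cells, and cultured young cells 66.0-fold below fresh young cells, with a counting interval for the ratio of cultured to fresh young cells of 0.000368 to 0.0929. An age difference in culture was not detectable at this depth: the ratio was 4.37 with an interval of 0.489 to 207, and the exact permutation test gave p = 0.155. The Arg2 record overlaps the end of Vti1b, a vesicle SNARE with 9577 counts in culture, and 17.1% of its 50-base windows occur in Vti1b transcripts, so the split of reads between the 2 genes is uncertain.

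Arginine is taken up by the cationic transporters, made from citrulline by Ass1 and Asl, and used by the arginases and nitric oxide synthases, while Odc1 turns ornithine into polyamines. Of 23 other genes of arginine and polyamine metabolism tested in fresh cells, 6 were higher and 4 lower in aged cells, with a median log2 difference of 0.02 beside -0.02 over all genes. Those with the smallest p were Sat1, which acetylates polyamines (0.83 ± 0.06, adjusted p = 2.07e-12), the transporter Slc7a2 (1.26 ± 0.09, 8.16e-11), Ass1 (1.13 ± 0.10, 1.09e-10) and Odc1 (1.23 ± 0.14, 2.58e-08). None of these 4 passed the threshold in culture. Slc7a2 (0.27 ± 0.10, adjusted p = 0.0518) and Sat1 (-0.22 ± 0.08, 0.0573) came near it, Sat1 with the sign opposite to fresh cells. Ass1 (0.24 ± 0.10, 0.125) and Odc1 (0.08 ± 0.18, 0.832) were further from it in culture. There, 4 of 24 genes were higher and 2 lower in aged cells, among them the transporter Slc7a1 (-0.42 ± 0.08, adjusted p = 3.51e-04), Pycr1 of proline synthesis (0.43 ± 0.09, 7.23e-04), Nos3 (1.05 ± 0.25, 0.00273) and the antizyme Oaz2 (0.25 ± 0.06, 0.00548). Nos3 is the synthase of endothelial cells, and 5 of 6 endothelial markers tested were also higher in aged than in young cultured cells, with Cdh5 at 1.41 ± 0.14 (adjusted p = 6.09e-10); their part in the Nos3 difference was not tested. Arg1, the cytosolic arginase, was at 2.45 CPM in fresh young and 2.58 CPM in fresh aged cells, too low to be tested.

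Star had 28, 28 and 18 counts in fresh young and 341, 360 and 307 in fresh aged libraries. Its level was 9.59, 8.05 and 8.41 CPM in young and 141, 149 and 120 CPM in aged cells, a fold of 15.8 between the means with no overlap. In culture, Star had 37 counts over the 11 young and 38 over the 12 aged libraries, and its highest level was 3.89 CPM in a young library on SoftY. Both ages were lower than fresh, by 5.50-fold in young and 96.6-fold in aged cells, with no overlap between fresh and cultured libraries. The ratio of aged to young in culture was 0.897 with a counting interval of 0.555 to 1.45 (exact permutation p = 0.429). The fresh ratio of 15.7 is the one that chose the gene, and the cultured ratio was not tested against it. By substrate the ratio was 0.751 on SoftY, 1.03 on StiffY, 0.574 on SoftA and 1.10 on StiffA, each with an interval that holds 1.

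Of 19 other genes of steroidogenesis and cholesterol delivery, 9 were higher and 3 lower in fresh aged cells, with a median log2 difference of 0.26. These included Npc2, which carries cholesterol out of lysosomes (0.85 ± 0.06, adjusted p = 9.69e-13), Hsd17b7, an enzyme of cholesterol synthesis (1.46 ± 0.17, 1.57e-07), the P450 reductase Por (0.53 ± 0.06, 4.27e-08) and Hsd11b1, which makes active glucocorticoid (0.49 ± 0.06, 5.51e-08). In culture 3 of 19 were higher and 1 lower, namely Hsd17b7 (0.37 ± 0.06, adjusted p = 1.13e-05), the lipid transfer protein Stard5 (0.33 ± 0.08, 0.007), Acat2 (0.23 ± 0.07, 0.0124) and the lipoprotein receptor Scarb1 (-0.32 ± 0.07, 0.00111). Hsd17b7 and Stard5 were called higher in fresh aged cells as well, whereas Acat2 was called lower there (-0.51 ± 0.13, 0.00277). Cyp11a1, the enzyme that makes pregnenolone from the cholesterol that Star delivers, had 0 counts in all 29 libraries, and Cyp17a1, which acts further down, had 1.

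Across the 5 genes higher in fresh aged cells, the exact permutation test found 0 with p under 0.05 in culture (5 tests, Sprr2h with p = 1 because it had no counts). The summed levels of macrophage, neutrophil and endothelial markers were also higher in the fresh aged than in the fresh young libraries. Other lists were lower in the fresh aged libraries. Pericyte and smooth muscle markers summed to 11.6 to 24.3 CPM in young and 5.88 to 7.87 CPM in aged fresh libraries. Mesothelial and epicardial markers summed to 18.5 to 26.7 CPM in young and 14.1 to 18.2 CPM in aged fresh libraries. The 10 macrophage and myeloid markers summed to 200 to 206 CPM in fresh young, 365 to 410 CPM in fresh aged, and 23.4 to 67.5 CPM in cultured libraries, and 5 of 7 tested were higher in fresh aged cells, led by Cd14 (1.86, adjusted p = 3.59e-13) and Cd68 (1.06, 1.20e-08). The other 2 were not called, Adgre1 at -0.34 (adjusted p = 0.0975) and Csf1r at 0.14 (adjusted p = 0.669). The 6 neutrophil markers summed to 0.467 to 4.45 CPM in young and 9.50 to 12.4 CPM in aged fresh libraries, in aged cells most of it S100a8, while S100a9, Ly6g and Retnlg were at 0 in all 6. The 7 endothelial markers summed to 126 to 151 CPM in young and 173 to 179 CPM in aged fresh libraries. In fresh aged cells 2 of 6 tested were higher, Cdh5 (0.95, adjusted p = 7.29e-06) and Kdr (0.92, adjusted p = 0.0447). That is near the 33.8% called over all genes. The rest were not called, with Pecam1 at 0.13, Tek at -0.09, Emcn at -0.03 and Egfl7 at -0.002. Cdh5 alone went from 30.7 CPM in fresh young to 60.7 CPM in fresh aged cells. The part of these marker lists in the levels of the 5 genes was not tested.

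**Figure D2:**
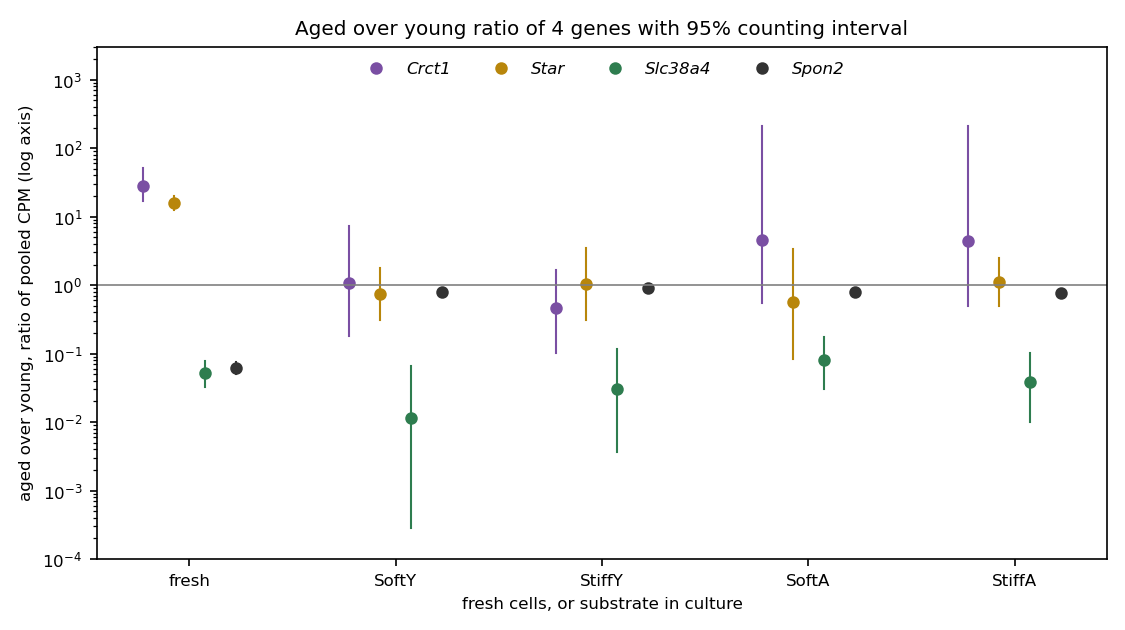
Ratio of the pooled aged to the pooled young level of Crct1, Star, Slc38a4 and Spon2 in fresh cells and on each substrate, on a log axis, with 95% intervals that cover counting error only. Crct1 and Star go from 28.0 and 15.7 in fresh cells to values between 0.457 and 4.59 with wide intervals in culture, Spon2 goes from 0.0618 to between 0.776 and 0.919, and Slc38a4 is at 0.0799 or lower on every substrate.

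Slc38a4 was the gene whose age difference was seen everywhere. Fresh young libraries had 179, 218 and 140 counts (61.3, 62.6 and 65.4 CPM) and fresh aged libraries 7, 10 and 7 counts (2.89, 4.14 and 2.74 CPM), a fold of 19.4 lower in aged cells. In culture, young cells had 14.8 and 11.7 CPM on SoftY, 7.64, 14.1 and 9.94 CPM on StiffY, 13.1, 11.6 and 16.9 CPM on SoftA and 8.29, 16.2 and 16.9 CPM on StiffA. The cultured aged libraries had 0 to 4 counts each, that is 0.429, 0 and 0 CPM on SoftY, 0.535, 0.473 and 0 CPM on StiffY, 0, 1.53 and 1.12 CPM on SoftA and 0.360, 0.715 and 0.472 CPM on StiffA. The lowest young library, at 7.64 CPM, thus lay above the highest aged one, at 1.53 CPM, over all substrates.

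The age difference of Slc38a4 passed the test on all 4 substrates, in edgeR's quasi-likelihood test with Benjamini-Hochberg adjustment over 12841 genes. The log2 fold change of aged over young cells was -6.01 ± 0.72 on SoftY (SE, adjusted p = 3.15e-07), -4.80 ± 0.66 on StiffY (adjusted p = 2.79e-06), -3.63 ± 0.52 on SoftA (adjusted p = 8.16e-06) and -4.58 ± 0.55 on StiffA (adjusted p = 2.37e-07). Of all genes, 2.16%, 4.54%, 3.43% and 3.21% were called in these 4 comparisons, in the same order. As the mean over substrates it was -4.76 ± 0.31 (adjusted p = 8.48e-15), with 14.1% of all genes called, 6.48% higher and 7.66% lower in aged cells. The exact permutation test gave p = 1.25e-05, the smallest that its 80000 arrangements allow. That test and the edgeR fit of the mean both take the libraries of different substrates as independent. The same library numbers recur across substrates, and the labels do not say whether they share an animal, so both p can be too small. Since the aged level rests on 1 to 7 counts per substrate, the size is loose: pooled counts put it at 88.5-fold on SoftY with an interval of 15.4 to 3544, and at 12.5-fold on SoftA with an interval of 5.75 to 32.3.

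Slc38a4 was not called for stiffness or for the age of the ECM. Stiff over soft was -0.16 ± 0.26 in young cells (adjusted p = 0.872) and -0.03 ± 0.54 in aged cells (adjusted p = 1.00), and aged over young ECM was 0.20 ± 0.26 in young cells (adjusted p = 0.833) and 1.50 ± 0.79 in aged cells (adjusted p = 0.265). The last has a 95% interval of -0.09 to 3.10, and the aged cells had 1 and 2 counts on SoftY and StiffY and 7 and 4 on SoftA and StiffA, so a difference of several-fold was not detectable at this depth. The interactions of cell age with stiffness (0.13 ± 0.64, adjusted p = 0.998) and with ECM (1.30 ± 0.81, adjusted p = 0.774) did not pass either. Culture itself went with a lower level at both ages, 4.93-fold in young and 6.24-fold in aged cells, and the fresh and cultured libraries of each age did not overlap.

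The SLC38 family holds sodium-coupled neutral amino acid transporters of the cell surface and of lysosomes. Of 6 other members tested, Slc38a7 was higher (0.54 ± 0.10, adjusted p = 1.31e-04) and Slc38a1 lower (-0.76 ± 0.17, 5.73e-04) in fresh aged cells. Slc38a1, a glutamine transporter of the cell surface, was also lower in cultured aged cells (-0.64 ± 0.14, 0.00109), and Slc38a10 (0.32 ± 0.04, 3.56e-07) and Slc38a6 (0.51 ± 0.17, 0.0332) were higher. Slc38a2, which like Slc38a4 carries neutral amino acids of the A system, was at 253 CPM in fresh young and 284 CPM in fresh aged cells and was not called in fresh (0.13 ± 0.08, adjusted p = 0.199) or cultured cells (0.03 ± 0.08, 0.871). The median of the 6 was 0.06 in fresh and 0.06 in cultured cells.

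As an imprinted gene Slc38a4 stands in a list of genes that are expressed from 1 parental allele. Of 18 others tested in fresh cells, 3 were higher and 6 lower in aged cells, with a median log2 difference of 0.00. The paternally expressed Peg3 (-2.82 ± 0.23, adjusted p = 3.70e-11; 44.0 to 6.39 CPM) and Peg10 (-2.41 ± 0.17, 2.07e-12; 79.9 to 15.3 CPM), the growth factor adaptor Grb10 (-0.41 ± 0.07, 2.08e-05) and the maternally expressed RNA Meg3 (-2.59 ± 0.45, 3.76e-05; 9.59 to 1.62 CPM) were lower. Decorin (Dcn), a matrix proteoglycan imprinted in placenta, was higher (0.48 ± 0.04, 9.13e-11). In culture, 5 of 19 were higher and 5 lower, with Peg3 (-0.57 ± 0.07, 1.21e-07), Meg3 (-0.67 ± 0.08, 8.48e-07), Grb10 (-0.28 ± 0.04, 3.58e-06) and Dlk1 (-2.48 ± 0.48, 2.99e-04) lower, Dcn lower in place of higher (-0.21 ± 0.05, 0.0125) and Peg10 not called (0.16 ± 0.13, 0.462). Peg3 was higher in aged than in young cells by its means on StiffY, 91.6 against 77.6 CPM, and lower on the other 3 substrates. Dlk1, too low to be tested in fresh cells, was at 2.01 CPM in fresh young cells and at 0 in fresh aged cells.

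**Figure D3:**
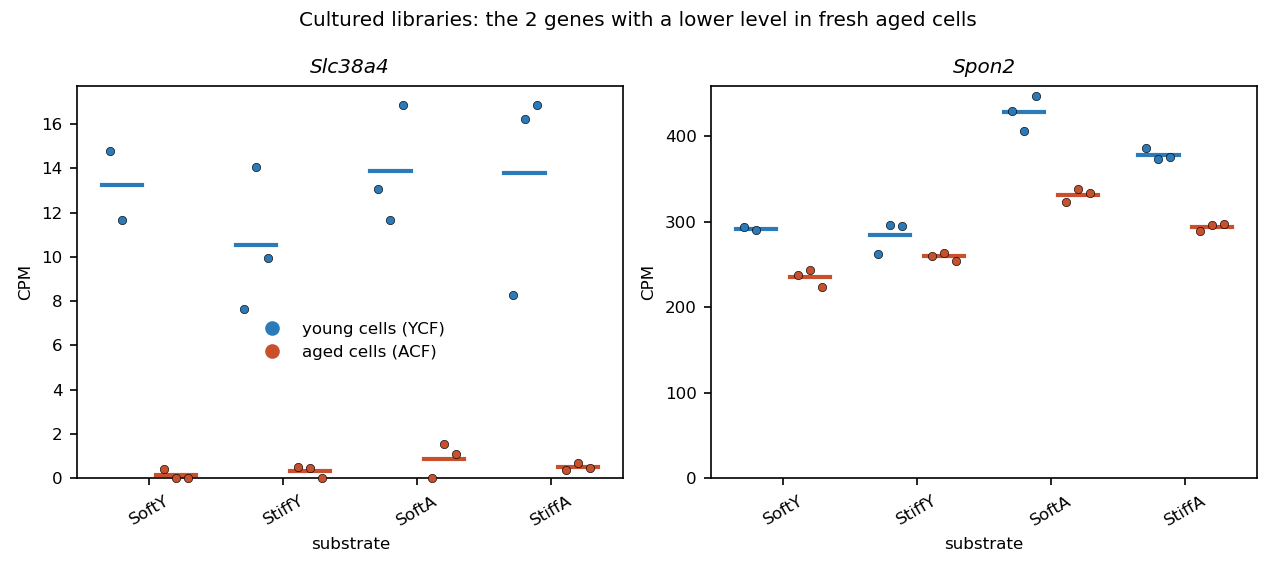
Levels of Slc38a4 and Spon2 in CPM in each of the 23 cultured libraries (points) with group means (lines), on axes that start at 0. Every young library of Slc38a4 lies above every aged one, and for Spon2 the ages overlap on StiffY and both ages are higher on the SoftA and StiffA substrates.

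Spon2 was low in fresh aged cells, and in culture the aged cells had nearly as much of it as the young ones. Fresh young libraries had 695, 823 and 520 counts (238, 236 and 243 CPM) and fresh aged libraries 37, 37 and 35 counts (15.3, 15.3 and 13.7 CPM), which is 16.2-fold lower. In culture, aged cells had 238, 244 and 224 CPM on SoftY, 261, 264 and 255 CPM on StiffY, 324, 338 and 334 CPM on SoftA and 289, 297 and 297 CPM on StiffA. Young cells had 294 and 291 CPM on SoftY, 262, 296 and 295 CPM on StiffY, 430, 406 and 448 CPM on SoftA and 386, 373 and 376 CPM on StiffA. Pooled over substrates, aged cells were 19.1-fold higher in culture than fresh and young cells 1.44-fold higher, and every cultured library lay above every fresh library of its age.

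A small age difference of Spon2 was seen in culture. The log2 fold change of aged over young cells was -0.32 ± 0.09 on SoftY (edgeR adjusted p = 0.0297), -0.37 ± 0.08 on SoftA (adjusted p = 0.00200) and -0.36 ± 0.08 on StiffA (adjusted p = 0.00278), where the 2 ages did not overlap. On StiffY it was -0.14 ± 0.08 (adjusted p = 0.375), with a 95% interval of -0.30 to 0.01 and overlap. As the mean over substrates it was -0.30 ± 0.04 (adjusted p = 4.60e-07, exact permutation p = 2.5e-05). Both tests of this mean again take the libraries of different substrates as independent, so both p can be too small. A shift of like size was seen in the fibroblast markers. In the same mean, 7 of the 11 were called lower in aged cells and 0 higher, with a median log2 difference of -0.26. With Slc38a4, the calls thus came to 2 of the 2 genes tested on SoftY, SoftA and StiffA and in the mean, and to 1 on StiffY. The filter on low counts bears on these shares, as members low at both ages were left out. Slc38a4 passed it through its young groups, with means of 10.5 to 13.9 CPM against 0.143 to 0.885 CPM in aged ones. The SoftY call of Spon2 is the weakest: it was lost without any of the 5 SoftY libraries (adjusted p 0.0601 to 0.264), without any 1 of 6 libraries of other substrates (from 0.0503), without the low count filter (0.154) and in a fit of those 2 groups alone (0.116). Those 6 were aged on StiffY replicate 1, young on SoftA replicate 1, aged on SoftA replicate 2, young on StiffA replicate 2 and aged on StiffA replicates 1 and 3. The SoftA call of Spon2 was also lost in a fit of its 2 groups alone (adjusted p = 0.169).

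Spon2 also differed between substrates. Its level was higher on aged than on young ECM by a log2 fold change of 0.48 ± 0.06 in young cells (adjusted p = 7.21e-07, with 2.82% of all genes called) and of 0.35 ± 0.05 in aged cells (adjusted p = 2.76e-05, with 7.61% called). In each cell age, every library on SoftA and StiffA lay above every library on SoftY and StiffY. Stiff over soft was -0.11 ± 0.06 in young cells (adjusted p = 0.381) and -0.01 ± 0.05 in aged cells (adjusted p = 1.00), with 4.01% and 0.327% of all genes called. The cell age by ECM interaction was -0.13 ± 0.08 (adjusted p = 0.764, with 0.171% called) and the cell age by stiffness interaction 0.10 ± 0.08 (adjusted p = 0.895, with 0.997% called), so a different response of the 2 ages was not shown. In these 6 comparisons the genes called were 1, 1, 0, 0, 0 and 0 of the 2 tested.

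Spon2 carries a thrombospondin type 1 repeat, a module it shares with spondin 1, Thbs1, Thbs2 and the CCN proteins of the matrix. The list used here also holds Thbs3, Thbs4 and Comp, thrombospondins that lack this repeat. Of 14 other genes of the list tested in fresh cells, 5 were higher and 7 lower in aged cells. Their median log2 difference was -0.55 beside -0.02 over all genes. The 4 with the smallest p were Ccn1, an adhesive matrix protein induced by stretch and serum (1.33 ± 0.05, adjusted p = 1.90e-19), Thbs1 (0.67 ± 0.05, 6.87e-12), Ccn5 (-3.66 ± 0.28, 1.39e-11) and Ccn2 (1.34 ± 0.21, 1.14e-05), also called connective tissue growth factor. Spon1, the nearest relative in the list, was lower too (-0.70 ± 0.18, adjusted p = 0.00357). In culture, 3 of 17 were higher and 3 lower. Ccn1 (-0.96 ± 0.04, adjusted p = 3.83e-20), Thbs1 (-0.74 ± 0.06, 1.78e-08) and Ccn2 (-0.33 ± 0.08, 0.0029) were now lower in aged cells, and Ccn4 (0.41 ± 0.07, 6.07e-05) and Comp, a thrombospondin of cartilage and tendon (1.22 ± 0.28, 0.00192), were higher. Ccn5 had a level in culture far above the fresh one at both ages. Its group means were 2376 to 2911 CPM in cultured aged cells against 2.58 CPM fresh. In cultured young cells they were 2043 to 2826 CPM against 32.2 CPM fresh. Spon2 differed from this, being 19.1-fold higher in culture in aged cells and 1.44-fold in young cells. Ccn5 was not called between the ages in culture (0.10 ± 0.04, 0.139).

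**Figure D4:**
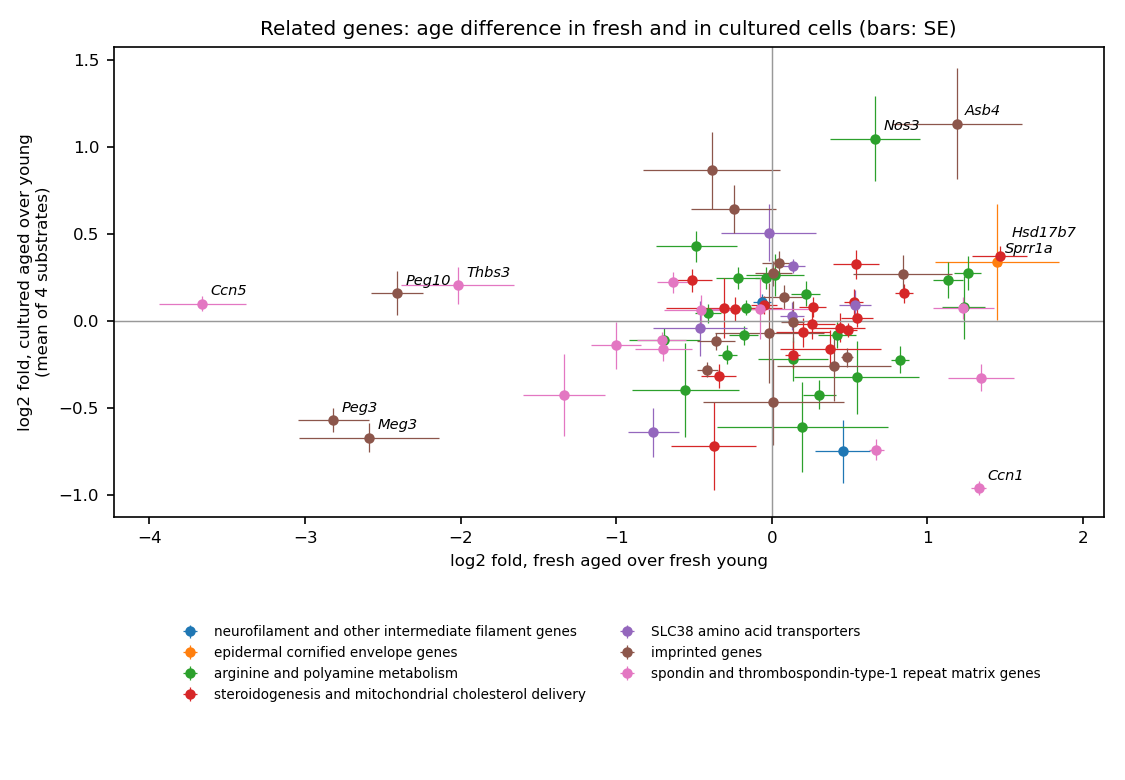
Log2 fold change of aged over young cells in fresh cells (horizontal) and as the mean over substrates in culture (vertical), with SE bars, for the 78 other genes of the 7 related lists that were tested in both. Ccn5, Thbs3 and Peg10 lie far to the left near 0 in culture, Peg3 and Meg3 are lower in both, and Ccn1 changes sides.

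The genes whose pattern over the 10 group means was most like each member were looked up among 9759 genes, as a description with no test, since fresh libraries set these patterns and all values share libraries. Arg2 and Sprr2h were each other's near neighbours (Pearson r = 0.994), and Hmox1, the inducible heme oxygenase, was next to both (0.992 and 0.993). Hmox1 was at 171 CPM in fresh young and 1304 CPM in fresh aged cells and at 63.4 to 81.4 CPM in the cultured groups. Prdx1, a peroxiredoxin, led for Crct1 (0.988) and came after Hmox1 for Arg2 (0.991), and went from 1207 to 3805 CPM in fresh cells. Cep170 led for Nefm (0.969), Ints6l for Star (0.979) and Tmem120a for Sprr2h (0.994). For Slc38a4 the likeness was weaker, with Ank3, which encodes an ankyrin of the membrane skeleton, at 0.938. Ank3 was at 21.4 and 3.93 CPM in fresh young and aged cells, and at 6.01 to 9.25 and 1.94 to 4.73 CPM in cultured ones. For Spon2 it was the receptor Mrgprf (0.980), with 36.3 and 6.10 CPM in fresh and 44.3 to 58.4 CPM in cultured groups.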

How the data were processed

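The 29 libraries each started from 20 ng of RNA and a low-input kit with cDNA amplification, per the labels' protocols. The submitters' processing notes name STAR 2.7.8a and the build mm39. The authors deposited raw counts per gene in 29 columns, all tied to a sample. The sources used here do not state the counting settings, strand included.

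From these counts, edgeR 4.0.16 (R 4.3.3) fitted the 6 fresh libraries and the 23 cultured libraries in 8 groups, each alone, with TMM factors, filterByExpr by group, robust quasi-likelihood F tests and Benjamini-Hochberg adjustment over all genes tested, called at an adjusted p under 0.05. An SE was derived from each fold change and its F value. CPM used TMM factors over all 29 libraries. Means over substrates weigh groups equally. The 5 genes under the cultured filter got an exact permutation test of mean CPM, with cell age permuted within substrates. Ratios of pooled counts carry exact 95% intervals, and a group at 0 was set to a floor of 3 counts. The fits were tested on simulated data. DESeq2 1.42.0, other normalizations, filters, blocks and left-out libraries were alternatives.

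The members and lists were chosen with earlier results of these data known. From each list, up to 4 genes called with the smallest p were named, or 2 with the highest level where none was called. Likeness listed for each member the 3 genes with the highest Pearson r of log2 CPM (prior count 2). The text names only some of these, picked after their values were seen. Genes named outside these rules (Nefl, Nefh, Sprr2g, Tgm1, Ivl, Gm9774, Gm4202, Arg1, Cyp11a1, Cyp17a1, Slc38a2, Spon1, Adgre1, Csf1r, Pecam1, Tek, Emcn, Egfl7, Tubb3, S100b, Krt18, Krt19, Cldn7, Grhl2, and list genes shown in the second setting) were chosen after their values were seen.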

Additional observations from a re-analysis of the deposited data

How the results depend on the processing

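Slc38a4 kept its call and direction in every age comparison in culture under all alternatives run. The number of the 7 genes called on SoftY was 1 in place of 2 without the low count filter and in a fit of the 2 groups alone, and 1 to 2 with 1 library left out; on SoftA it was 1 with the 2 groups alone, where Spon2 had an adjusted p of 0.169. No called result changed direction. Differences that were not called did change sign: Slc38a4, stiff over soft in aged cells, was at -0.03 (-0.28 to 0.91 over the alternatives), its cell age by stiffness interaction at 0.13 (-0.12 to 1.07), and Spon2, stiff over soft in aged cells, at -0.0130 (-0.0299 to 7.43e-04). With counts summed over substrates per library number (3 young and 3 aged sums), 775 of 14372 genes were called, and both genes were among them: Slc38a4 at -4.60 ± 0.29 (adjusted p = 2.27e-07) and Spon2 at -0.30 ± 0.06 (adjusted p = 0.0117), while Star, testable in these sums, was at -0.17 ± 0.41 (adjusted p = 0.862). The fresh fold of Spon2 was 18.1 on plain library totals against 16.2. Same-numbered libraries deviated together more than differently numbered ones, though not in every pair. By library number, the median correlation was 0.13 within young and 0.06 within aged cultured cells. Of these pairs, 10 of 15 and 6 of 18 were above 0.1. Differently numbered pairs were lower, with medians of -0.08 and -0.06 and 3 of 30 and 0 of 36 pairs above 0.1. With a replicate block by label number or by library number, the mean age difference in culture was -4.79 for Slc38a4 and -0.30 for Spon2, and no call of either gene changed. By label number, 3795 genes were called in fresh cells against 3985. At these depths a gene under about 1 CPM rests on 0 to 4 counts per library, which limits Nefm, Arg2 and the aged level of Slc38a4. DESeq2 called 2897 genes in fresh cells.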
